A study of Mus musculus with 6 samples.

Results

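miR-204 and miR-211 form a family of microRNAs (miRNAs) that carry the same seed, the short stretch at the 5′ end that pairs with target mRNAs. Its rows in the small RNA data of the mouse prefrontal cortex are mmu-miR-204-5p, mmu-miR-204-3p and mmu-miR-211-5p (written below without the species prefix), chosen by name, and they are 3 of the 1189 entries listed for each library. miR-211-3p, the other arm of miR-211, is not among these entries and has no value here. The libraries came from male wild type C57BL/6 mice with a recorded age of 18 months, whereas the library names carry 17 months. In the PND (postoperative neurocognitive disorder) group, 3 mice had been anesthetized with 1.5% isoflurane for 30 min and then underwent an exploratory laparotomy of 30 min under isoflurane, with lidocaine cream and povidone iodine on the wound afterwards. In the CON group, 3 mice had neither anesthesia nor operation. All mice went through the same behavioral tests, and all were deeply anesthetized with isoflurane and perfused with saline before the cortex was taken, so both groups share this last exposure. The cortex was taken soon after the last behavioral test, a maze test days after the operation, and earlier times were not sampled. Anesthesia and operation were given together, and their effects cannot be told apart in this design. The mice of a group were separate animals, with 1 library each.

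A miRNA is cut from a hairpin whose stem yields a 5p and a 3p arm. In most hairpins one arm, the guide, is loaded into an Argonaute protein and represses mRNAs that match its seed, while the other arm is largely degraded. Mir204 and Mir211 are hosted in introns of Trpm3 and Trpm1, which encode cation channels of the melastatin family. miR-204 is known for high levels in the choroid plexus and the retinal pigment epithelium and is also found in astroglia, and miR-211 is known from pigment cells and the retinal pigment epithelium. The prefrontal cortex has no choroid plexus of its own, so a bulk sample of it holds such cells only where tissue next to a ventricle was taken along.

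The sequences show how close the members are to each other. They are the RefSeq sequences on GRCm38.p6, written 5′ to 3′, with bases 2 to 8, the seed, in capitals.
miR-204-5p: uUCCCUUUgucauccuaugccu
miR-211-5p: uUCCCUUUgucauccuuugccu
miR-204-3p: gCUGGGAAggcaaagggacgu
miR-211-3p: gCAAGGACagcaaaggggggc
The 5p arms are 22 bases long and are identical at 21 of them. Their single difference is A17U, with miR-204-5p first and positions counted from 1 at the 5′ end. The first 16 bases are shared, and among 1005 RefSeq hairpins only Mir204 and Mir211 hold that stretch. The rule by which the authors treated reads that match both miRNAs is not given in the sources used here, so a read of miR-204-5p that carries an error at this base could be listed as miR-211-5p. The 3p arms are identical at 14 of 21 bases and have different seeds. A single other mature sequence in the RefSeq table has the seed of the family, miR-7670-3p.
miR-7670-3p: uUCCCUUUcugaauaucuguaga
It was seen with 2 reads in PND mouse 1 and 1 read in CON mouse 2 and with 0 reads elsewhere, below the floor of 3 reads used here as the smallest level that can be shown. The seed of the family was therefore carried almost entirely by miR-204-5p and miR-211-5p. The seed of miR-204-3p is shared with miR-7684-5p, which is not among the entries listed.

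The hairpins show where the arms lie. The arms are in capitals in the RefSeq hairpins of GRCm38.p6.
Mir204: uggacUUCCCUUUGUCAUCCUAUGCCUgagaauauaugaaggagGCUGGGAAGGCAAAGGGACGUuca
Mir211: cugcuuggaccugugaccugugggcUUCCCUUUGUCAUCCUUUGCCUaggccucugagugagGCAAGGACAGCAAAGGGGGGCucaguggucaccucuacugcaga
The Mir204 hairpin has 68 bases and the Mir211 hairpin 106 bases, with 17 and 15 bases between the arms. The longest stretch of the 5p arm that is exactly complementary to its own 3p arm is UCCCUUUG in Mir204, 8 bases that cover the seed, and CCCUUUG in Mir211, 7 bases. Mir204 lies on chromosome 19 from 22750605 to 22750672 on the plus strand. In the GENCODE M21 annotation of the same assembly it lies inside Trpm3, which runs from 22139046 to 22995410 on the plus strand, and it is intronic in all 18 of the annotated Trpm3 transcripts that span it. Mir211 lies on chromosome 7 from 64205806 to 64205911 on the plus strand, inside Trpm1, which runs from 64153835 to 64269775 on the plus strand. It is intronic in all 12 of the Trpm1 transcripts that span it. Both hairpins thus have the strand of their host, and a transcript of the host carries them in an intron.

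The libraries held 17600766 to 19471226 reads on the listed miRNAs in PND and 14849461 to 16093467 in CON. Every PND library was thus deeper than every CON library, and depth cannot be told apart from the group. The levels are reads per 1000000 reads (CPM), and 3 reads correspond to 0.154 to 0.202 CPM. A single neuronal miRNA, miR-128-3p, took 17.6% to 29.2% of the reads, with the highest share in CON mouse 2. CON mouse 2 had the lowest level for 244 (67.6%) of the 361 miRNAs that averaged 10 CPM or more. CON mouse 1 stood apart in miRNAs of epithelial cells, whose values are given below. PND mouse 1 stood apart in some miRNAs of red blood cells. In bulk tissue, fewer cells of a type and less of a miRNA per cell cannot be told apart.

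miR-204-5p, the guide arm of the family, was an abundant miRNA of this cortex. Its level was 792, 792 and 759 CPM in PND mice 1 to 3 and 921, 583 and 766 CPM in CON mice 1 to 3. The PND mice were close together, and all of them lay between the lowest and the highest CON mouse. It ranked 77 to 89 among the 1189 entries in the 6 libraries. With 8650 to 15420 reads per library, counting error was small, and the 95% Poisson interval was 906 to 937 CPM in CON mouse 1 and 570 to 595 CPM in CON mouse 2. These intervals cover counting error only. The spread of the CON mice, 757 ± 170 CPM (SD, n = 3), was 24.2 times the SD expected from counting, and that of the PND mice, 781 ± 18.8 CPM (SD, n = 3), was 2.87 times. The CON spread came from the highest and lowest of all libraries. As a coefficient of variation it was 22.4% in CON, where the median over the same 361 miRNAs was 15.7%, and 2.40% in PND, where that median was 9.46%.

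**Figure D1:**
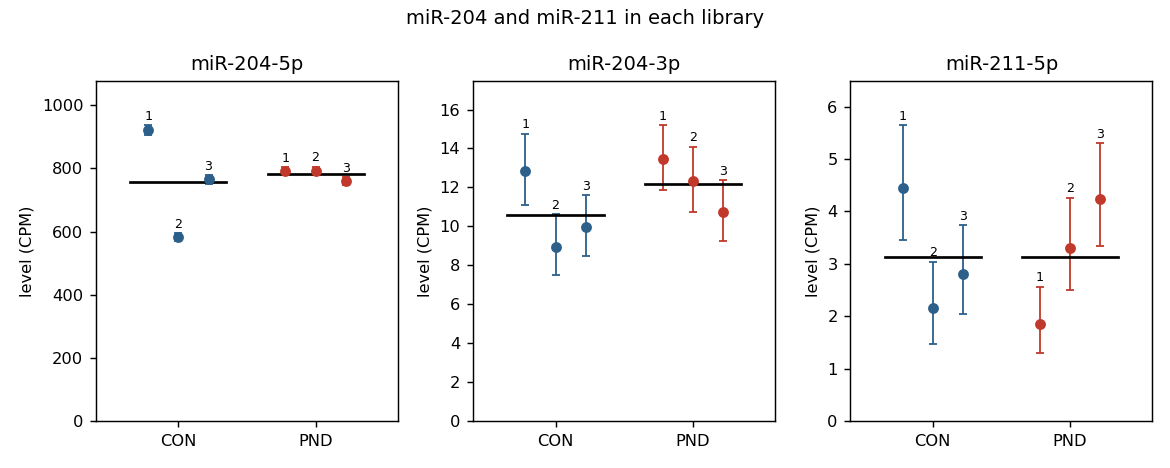
Level of miR-204-5p, miR-204-3p and miR-211-5p in CPM (y axes, from 0) in the 3 CON and 3 PND libraries (points, numbered by mouse), with exact 95% Poisson intervals as bars and the group mean as a line. The groups overlap in each panel, and CON mouse 1 and CON mouse 2 hold the highest and the lowest level of miR-204-5p, 921 and 583 CPM.

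miR-204-3p, the arm that is not the main product of the hairpin, was detected in every library. Its level was 13.5, 12.3 and 10.7 CPM in PND mice 1 to 3 and 12.8, 8.96 and 9.94 CPM in CON mice 1 to 3, from 133 to 262 reads. The highest level was in PND mouse 1 and the lowest in CON mouse 2, and the groups overlapped through CON mouse 1. The group levels were 12.2 ± 1.37 CPM in PND and 10.6 ± 2.01 CPM in CON (SD, n = 3). The SD was 1.68 times the counting SD in PND and 2.43 times in CON, so counting takes a larger part of the spread than for the 5p arm. The arm ranked 330 to 360 in the libraries.

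The arm ratio of miR-204, the level of the 5p arm over that of the 3p arm in the same library, does not depend on how the libraries were scaled. It was 58.9, 64.2 and 70.8 in PND mice 1 to 3 and 71.8, 65.0 and 77.0 in CON mice 1 to 3. The lowest ratios were those of PND mouse 1 and PND mouse 2, but PND mouse 3 lay above CON mouse 2, so the groups overlapped. The 3p arm made up 1.28% to 1.67% of the reads of both arms. The mean ratio was 64.6 ± 5.97 in PND and 71.3 ± 6.01 in CON (SD, n = 3). On the log2 scale PND minus CON was -0.14 (standard error 0.10, two-sided exact permutation p = 0.2). With 3 mice against 3 this permutation test cannot give a p below 0.1. The counting error of a single log2 ratio was 0.0899 to 0.126, of the same order as the SD between mice, 0.13 in PND and 0.12 in CON.

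**Figure D2:**
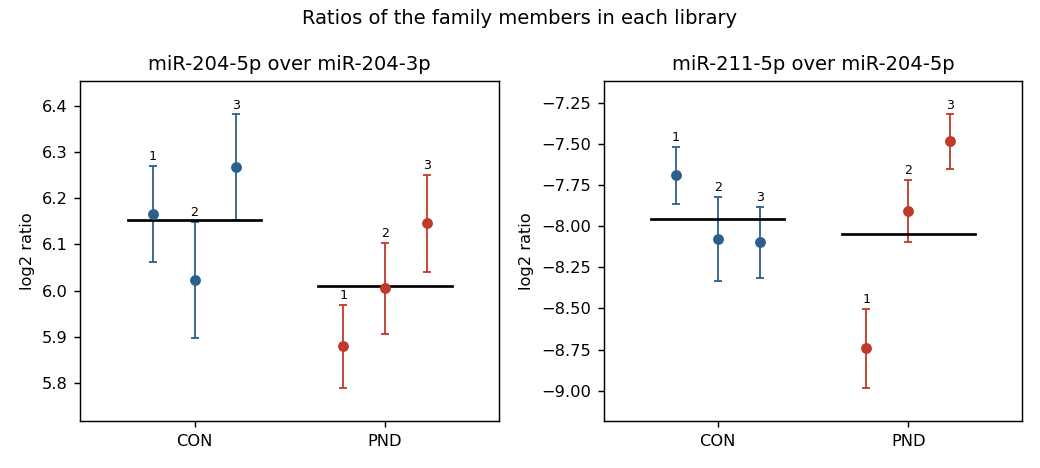
Log2 ratio of miR-204-5p to miR-204-3p (left) and of miR-211-5p to miR-204-5p (right) in each CON and PND library (points, numbered by mouse), with the counting standard error as bars and the group mean as a line. The arm ratio lies between 5.88 and 6.27 in all libraries, whereas the ratio of miR-211-5p to miR-204-5p lies between -8.74 and -7.49, with both extremes in the PND group.

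Among 170 hairpins whose arms were both read in every library and together had at least 10 CPM, the 5p arm was the higher one in 86 (50.6%). The mean log2 arm ratio of miR-204 was 6.08, above that of 84.7% of these hairpins. By size, whichever arm was higher, its asymmetry exceeded that of 68.2% of them, with a median of 4.60 on the log2 scale. Mir204 thus had a marked preference for its 5p arm without standing outside the range of other hairpins. Its nearest neighbours in this order were let-7e below, at 5.88, and let-7b above, at 6.72, both named after their values were seen. The groups did not overlap in the arm ratio for 12 of the 170 hairpins (7.06%), and miR-204 was not among them. Read numbers of the arms also carry the ligation preferences of library preparation, which were not measured here.

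**Figure D3:**
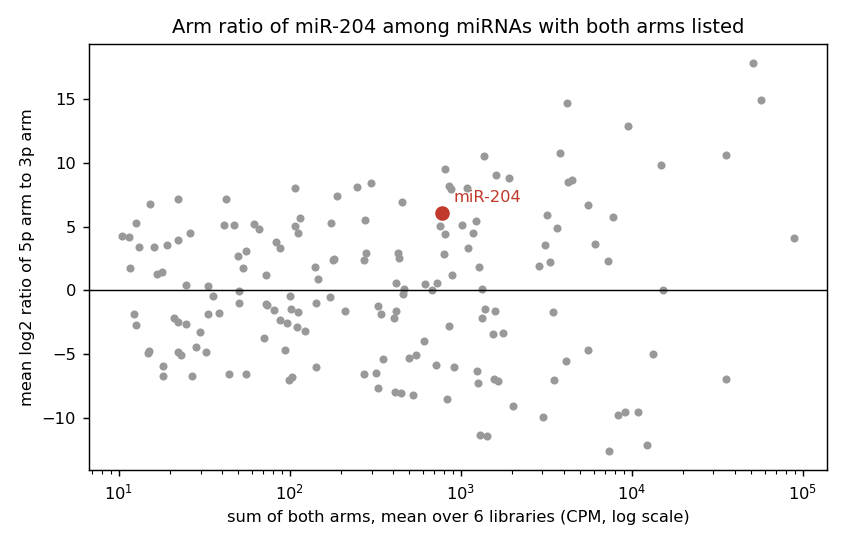
Mean log2 ratio of the 5p arm to the 3p arm (y axis) against the summed level of both arms in CPM (x axis, log scale) for 170 hairpins, each a point. miR-204 (red) lies at 6.08, on the side of the 5p arm and inside the range of the other hairpins.

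miR-211-5p, the family member of the Trpm1 host, was a scarce miRNA that was nonetheless read in every mouse. Its level was 1.85, 3.30 and 4.23 CPM in PND mice 1 to 3 and 4.45, 2.15 and 2.80 CPM in CON mice 1 to 3. The highest and the lowest level came from CON mouse 1 and PND mouse 1, and the groups covered almost the same range. The reads behind these values numbered 32 to 75 per library, so the 95% Poisson interval was wide, from 1.29 to 2.56 CPM in PND mouse 1 and from 3.46 to 5.64 CPM in CON mouse 1. These intervals did not overlap, and the SD between mice was 2.90 times the counting SD in PND and 2.63 times in CON. The group levels were 3.13 ± 1.20 CPM in PND and 3.13 ± 1.19 CPM in CON (SD, n = 3).

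miR-204-5p exceeded miR-211-5p by 179- to 428-fold. miR-211-5p made up 0.233%, 0.414% and 0.555% of the summed level of both in PND mice 1 to 3 and 0.481%, 0.369% and 0.364% in CON mice 1 to 3. PND mouse 1 had the lowest share and PND mouse 3 the highest, and the CON mice lay between them. The reads of the 6 libraries departed from 1 common share with a chi-square of 21.9 at 5 degrees of freedom, or 4.37 per degree, against 1.88 per degree for the share of the 3p arm in miR-204. The share of miR-211-5p thus varied between these libraries by more than counting, which compares libraries and not conditions. The log2 ratio of miR-211-5p to miR-204-5p differed by -0.09 between PND and CON (standard error 0.39, two-sided exact permutation p = 0.9). Its sign rested on single mice, as it became 0.26 when PND mouse 1 was left out and 0.042 when CON mouse 1 was. The part of miR-204-5p reads listed as miR-211-5p was not tested. The summed level of miR-204-5p and miR-211-5p was 764 to 795 CPM in PND and 585 to 926 CPM in CON.

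In the order of mean levels over the 6 libraries, miR-204-5p stood at place 83, miR-204-3p at place 350 and miR-211-5p at place 447. The miRNAs next to miR-204-5p were miR-488-3p, miR-132-5p and miR-382-5p above it, at 832, 822 and 808 CPM, and miR-30b-5p, miR-16-5p and miR-361-3p below it, at 768, 763 and 745 CPM. None of the 6 was on 1 side of miR-204-5p in every library, so the order among these neighbours is within the spread between mice. miR-132-5p, the passenger arm of an activity-induced neuronal miRNA, was above miR-204-5p in 5 of the 6 libraries, and miR-361-3p was above it in 1. The same held for the other members, whose neighbours changed sides between libraries as well. miR-204-3p at 11.4 ± 1.77 CPM (SD, n = 6) stood between miR-125a-3p at 11.5 CPM and miR-3072-3p at 11.2 CPM. miR-211-5p at 3.13 ± 1.07 CPM (SD, n = 6) stood between miR-704 at 3.17 CPM and miR-541-3p at 3.13 CPM.

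The likeness of the members to each other over the mice changed with the libraries included. Over the 6 libraries, which share depth and composition between the rows, log2(CPM + 1) of the arms of miR-204 had a Pearson r of 0.81 and a Spearman rho of 0.89. Without the 2 libraries farthest from the median of miR-204-5p, CON mice 1 and 2, r was 0.89 over 4 libraries. miR-204-5p and miR-211-5p had r of 0.56 and rho of 0.26 over 6 libraries, and r of -0.63 over the 4 libraries without CON mice 1 and 2. Those 4 libraries span only 759 to 792 CPM of miR-204-5p, so r with it over them cannot show whether a likeness holds. miR-204-3p and miR-211-5p had r of 0.16 and rho of 0.086, and r of 0.54 over the 4 libraries without CON mouse 2 and PND mouse 1. The miRNAs most like miR-204-5p among those that averaged 10 CPM or more were miR-760-3p (r = 0.98, rho = 0.89), miR-874-3p (r = 0.97, rho = 0.60), miR-344d-3p (r = 0.97, rho = 0.54), miR-7a-2-3p (r = 0.97, rho = 0.71) and miR-3102-3p (r = 0.97, rho = 0.60), each over 6 libraries. Likeness of this kind was common, since 23 of the 360 other miRNAs had r above 0.9 and the median r was 0.62. Over the 4 libraries without CON mice 1 and 2, r with miR-204-5p was 0.91 for miR-760-3p, 0.30 for miR-874-3p and -0.57 for miR-344d-3p. It was 0.47 for miR-7a-2-3p and -0.46 for miR-3102-3p. The narrow range of miR-204-5p in these libraries leaves these values unable to show which likeness holds. For miR-204-3p the most alike were miR-10a-5p (r = 0.96, rho = 0.94), miR-433-3p (r = 0.94, rho = 0.77), miR-122-5p (r = 0.94, rho = 0.94), miR-382-5p (r = 0.94, rho = 0.83) and miR-486a-5p (r = 0.92, rho = 0.94). Over the same 4 libraries, where miR-204-3p spans 9.94 to 13.5 CPM, r with it was 0.87 to 0.99 for these 5. These values are descriptions and were not tested.

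The comparison of PND with CON asks whether the family differed in the aged cortex at the time of sampling, days after anesthesia and operation. None of the 3 members differed between the groups beyond the spread between mice. With limma on log2(CPM + 1) over all 1189 entries, miR-204-5p had a log2 fold change of 0.07 (standard error 0.16, 95% interval -0.31 to 0.45, adjusted p = 0.93). For miR-204-3p the log2 fold change was 0.19 (standard error 0.18, 95% interval -0.22 to 0.61, adjusted p = 0.77). For miR-211-5p it was -0.01 (standard error 0.29, 95% interval -0.69 to 0.67, adjusted p = 0.99), on a scale that understates the change of such low levels. For the miR-204 arms the intervals correspond to 0.807- to 1.37-fold and 0.859- to 1.53-fold, and a 2-fold change lies outside both. For miR-211-5p the interval corresponds to 0.620- to 1.59-fold of CPM + 1, which at about 3 CPM does not exclude larger folds of the level itself. Two-sided exact permutation tests on the levels gave p = 0.8, p = 0.3 and p = 1 in the same order.

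Of the 3 members, 0 had an unadjusted limma p under 0.05, where 5.13% of all entries did (4.04% with PND higher), and 0 passed this limit together with an absolute log2 fold change above 1, where 0.0841% did. An adjusted p under 0.05 was reached by 0 members and by 0.421% of all entries. The groups did not overlap for 0 members, against 9.92% of all entries and 8.86% of those that averaged 10 CPM or more. With edgeR's quasi-likelihood test, edgeR's exact test, DESeq2 and limma-voom on the recovered reads the number of members with an unadjusted p under 0.05 was also 0. The lowest p of any member under any setting was 0.0729, unadjusted, for miR-204-3p in limma without CON mouse 1. In 65.3% of all entries the PND mean was higher, a share that fell to 51.1% with TMM factors and to 49.2% with DESeq2 size factors. miR-204-5p turned with this scaling, from 0.071 in CPM to -0.052 with TMM factors and -0.081 with DESeq2 size factors, so no direction can be given for it. It also turned without CON mouse 2, to -0.11, and was 0.23 without CON mouse 1. miR-204-3p was higher in PND under each setting run, by 0.06 to 0.33 on the log2 scale, and past no limit. After TMM scaling miR-204-5p was still highest in CON mouse 1, at 893, and lowest in CON mouse 2, at 677 scaled CPM.

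**Figure D4:**
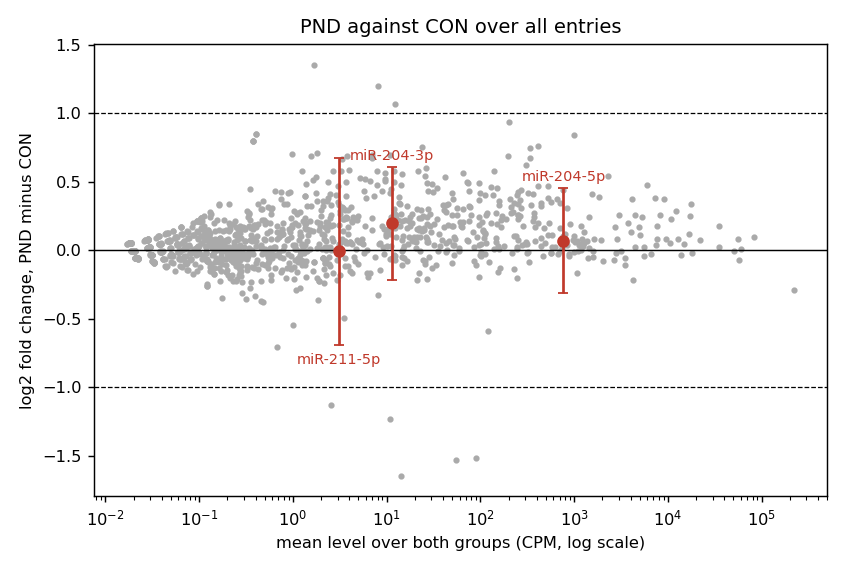
Log2 fold change of PND against CON on the log2(CPM + 1) scale (y axis) against the mean level in CPM (x axis, log scale) for all 1189 entries (grey), with the 3 family members in red and their 95% intervals from limma as bars. All 3 intervals include 0 and lie between 1 and -1 (dashed), on a scale that understates folds of low levels.

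Since miR-204 is known from choroid plexus and astroglia, miRNAs of other cell types were read beside it, from lists chosen with earlier results of these data known. The list for ciliated and choroid plexus epithelium holds the miR-34b/c and miR-449 families, which are known from multiciliated cells, and 7 of its 9 miRNAs were listed. Its most abundant member was miR-34c-5p, with 300.4, 276 and 334 CPM in PND mice 1 to 3 and 289, 147 and 261 CPM in CON mice 1 to 3. CON mouse 2 had the lowest level, as for miR-204-5p and for 67.6% of the miRNAs that averaged 10 CPM or more. miR-449a-5p was present at 3.23 to 11.6 CPM, whereas miR-449a-3p and miR-449c-5p were at 0 reads in most libraries and at most at 4 reads. The list summed to 318 to 373 CPM in PND and 178 to 346 CPM in CON, most of it miR-34c-5p. Both families of the list were thus measurable, the miR-449 family almost only through miR-449a-5p. As families known from multiciliated cells they do not single out choroid plexus, and the cells that made them here were not identified. The share of miR-204-5p that came from choroid plexus or multiciliated cells was not tested. In limma, 0 of its 7 miRNAs had an unadjusted p under 0.05, and their median log2 fold change was 0.090, beside 0.05 over all entries. Without CON mouse 2 the median of this list was -0.0016.

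CON mouse 1, which had the highest level of miR-204-5p and of miR-211-5p, also stood apart in other epithelial miRNAs. The miR-200 family list (8 of 10 listed) summed to 875 CPM in this mouse and to 28.2 to 37.5 CPM in the other 5. The miRNAs of sensory epithelium and retina, miR-96, miR-182 and miR-183 (4 of 6 listed), summed to 786 CPM in CON mouse 1, to 35.4 CPM in CON mouse 2 and to 110 to 162 CPM in the others. miR-183-5p had r of 0.89 and rho of 0.60 with miR-204-5p over the 6 libraries and r of -0.20 over the 4 without CON mice 1 and 2. Those 4 libraries span only 759 to 792 CPM of miR-204-5p, so r over them cannot show whether a likeness holds. The extremes of this list fell in the same mice as those of miR-204-5p. Their size differed, since CON mouse 1 exceeded CON mouse 2 by 25.9-fold in miR-183-5p and by 1.58-fold in miR-204-5p. The part of these cells in the level of miR-204-5p was not tested. The median log2 fold change was -1.18 for the miR-200 list and -0.16 for the sensory list, with 0 of their miRNAs at an unadjusted p under 0.05. Both medians rested on these mice. Without CON mouse 1 they were 0.017 and 0.72, and without CON mouse 2 they were -1.84 and -1.26.

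The list named glia-enriched (6 of 6 listed) holds miR-29a-3p, miR-29b-3p, miR-29c-3p, miR-21a-5p, miR-24-3p and miR-143-3p. The cells that made these miRNAs here were not identified, so its sum is not a measure of glia alone. It was led by miR-29a-3p, followed by miR-143-3p with means of 8963 CPM in PND and 7597 CPM in CON. Over the 6 libraries r with miR-204-5p ran from 0.06 for miR-143-3p to 0.70 for miR-29b-3p. The list summed to 26272 to 33611 CPM in PND and 21191 to 27968 CPM in CON, with its lowest sum in CON mouse 2. Its median log2 fold change was 0.33, and 0 of the 6 had an unadjusted p under 0.05. Over all entries that averaged 10 CPM or more the median was 0.14, and 79.2% of them had the higher mean in PND. Without CON mouse 2 the median of the glia-enriched list was 0.19. miR-29a-3p had r of 0.69 and rho of 0.14 with miR-204-5p over the 6 libraries and r of -0.40 over the 4 without CON mice 1 and 2. The range of miR-204-5p in those 4, 759 to 792 CPM, is too narrow for that r to decide on a likeness. The neuronal list (9 of 9) summed to 207429 to 260085 CPM in PND and 244837 to 316598 CPM in CON, most of it miR-128-3p, with a median log2 fold change of 0.11. The oligodendrocyte list (4 of 4), led by miR-219a-2-3p, summed to 2127 to 2455 CPM in PND and 2027 to 2223 CPM in CON, with a median of 0.19. The endothelial list (2 of 2) summed to 13326 to 13992 CPM and 11991 to 14372 CPM, with a median of 0.28. Without CON mouse 2 the medians of the neuronal, oligodendrocyte and endothelial lists were 0.035, 0.10 and 0.15. The lists of microglia and leukocytes (5 of 5) and of red blood cells (4 of 4) summed to 1013 to 1194 CPM and 47.1 to 101 CPM in PND and to 1054 to 1155 CPM and 31.9 to 54.7 CPM in CON, with medians of -0.01 and 0.39. In CPM, CON mouse 2 also had the lowest sum of the oligodendrocyte, endothelial and red blood cell lists. For oligodendrocytes this was a near tie, 2027 CPM there and 2029 CPM in CON mouse 1. CON mouse 2 had the lowest TMM factor, 0.860, and the list sums were not read under other scalings. The lowest sums of the neuronal list, the miR-200 list and the list of microglia and leukocytes fell in PND mice. PND mouse 1 stood apart in the red blood cell list. miR-451a, a miRNA of erythroid cells, was at 40.9 CPM there and at 0.621 to 3.08 CPM in the other mice, and miR-144-5p had 31 reads there and at most 4 elsewhere. The most abundant of the list, miR-486a-5p, separated this mouse little. It was at 57.9 CPM there, at 51.3 CPM in CON mouse 1 and at 30.2 to 47.6 CPM in the others. Without PND mouse 1 the median of this list was 0.025. The same mouse had the highest level of miR-204-3p and the lowest of miR-211-5p, and the part of blood in these levels was not tested. Over all 9 lists, 1 of 49 miRNAs had an unadjusted limma p under 0.05 (5.13% of all entries did), miR-142a-5p of leukocytes, with a log2 fold change of 0.51 (adjusted p = 0.77). The groups did not overlap for 2 of the 49, miR-142a-5p, higher in PND, and miR-200a-5p, higher in CON, against 9.92% of all entries. For miR-200a-5p this was a near tie, 0.683 CPM (11 reads) in CON mouse 3 and 0.682 CPM (12 reads) in PND mouse 2. CON mouse 1 had 11.8 CPM (181 reads) of it.

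**Figure D5:**
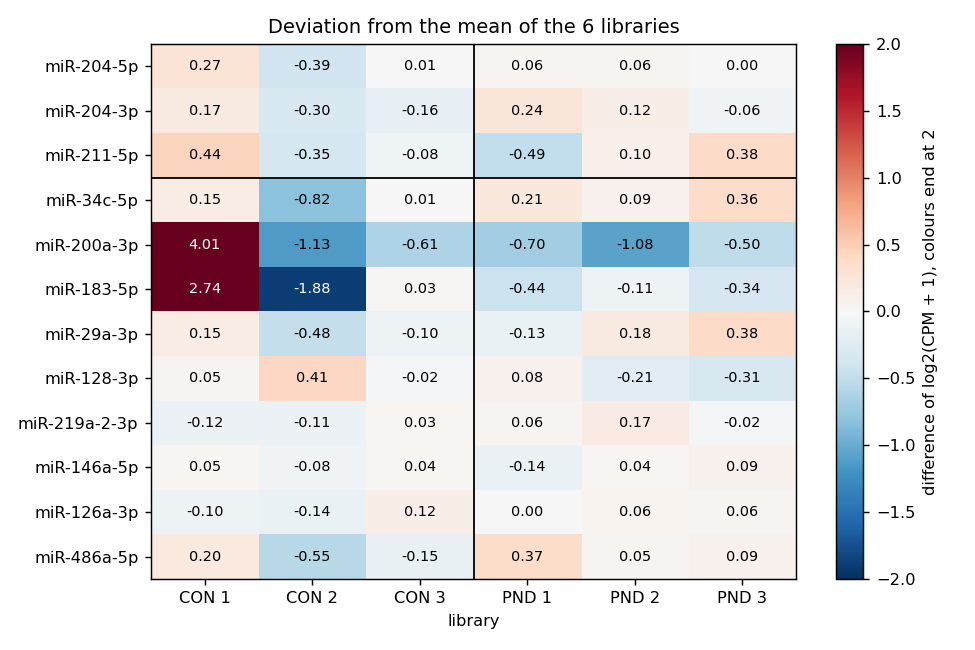
Difference of log2(CPM + 1) from the mean of the 6 libraries (colours and numbers, colours end at 2) for the 3 family members (top) and the most abundant miRNA of each of the 9 cell type lists (below), in CON mice 1 to 3 and PND mice 1 to 3. miR-204-5p differs by 0.27 in CON mouse 1 and by -0.39 in CON mouse 2, and miR-183-5p by 2.74 and -1.88 in the same mice.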

How the data were processed

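Small RNA libraries of the prefrontal cortex of 6 mice were read, 3 PND and 3 CON, grouped by the treatment in the labels. The authors filtered reads with fastx, aligned clean reads with Bowtie (0.12.2 in the submitters' processing notes, which list the builds mm8 and mm9), identified miRNAs by miRBase positions, applied TMM and deposited CPM values, which the paper calls TPM. The paper names a NEBNext small RNA kit and the labels a VAHTS total RNA kit. Each column sums to just under 1000000, so the values carry no TMM scaling. All values (100%) were whole multiples of 1 read within 0.02 reads. Of each total, 8 to 27 reads lay outside the listed entries. No library was a copy of another of its group, since between mice of a group the chi-square was at least 120 times its degrees of freedom. Pairs across the groups were not checked.

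The members and lists were chosen with earlier results of these data known. The main test was limma 3.58.1 (trend) in R 4.3.3 on log2(CPM + 1), unfiltered, with Benjamini-Hochberg adjustment over 1189 entries. A miRNA passed both limits with a fold change above 2 in either direction and p below 0.05 before adjustment. Ratios were compared by exact permutation tests. Alternatives used edgeR 4.0.16 and DESeq2 1.42.0, other scalings, filters, pseudocounts, the replicate block and leaving out each mouse. On simulated reads (1182 entries), limma called 57 of 57 miRNAs changed 4-fold at a mean of at least 10 CPM, 93 of all 198 changed 4-fold, and 0 of 984 unchanged ones. The simulated reads had the same dispersion for every miRNA and no library that stood apart, unlike these data. They check the procedure and do not give its power here, or for changes below 4-fold. Named miRNAs are the members, miRNAs of the same seed, the marker lists, the nearest in mean level and the most alike over libraries. Python 3.11.15 with scipy 1.17.1 was used. Of the 1189 entries, 997 matched a RefSeq name, among them all 3 members. The RefSeq and GENCODE coordinates are on GRCm38, not on the authors' builds, and no coordinates were taken from the deposited files.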

Additional observations from a re-analysis of the deposited data

How the results depend on the processing

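No member passed an unadjusted p of 0.05 under any of the settings run, and the arm ratio of miR-204 (-0.21 to -0.077 with each mouse left out) and the log2 fold change of miR-204-3p (0.093 to 0.33) kept their sign in all of them. miR-204-5p changed sign, to -0.052 with TMM factors, -0.081 with DESeq2 size factors, -0.059 with both edgeR tests (quasi-likelihood and exact), -0.086 in DESeq2, -0.053 in limma-voom and -0.015 without miR-128-3p in the total, a setting chosen after the data were seen. With each mouse left out it lay between -0.11 (without CON mouse 2) and 0.23, miR-211-5p between -0.20 and 0.24 (0.24 without PND mouse 1, 0.21 without CON mouse 1), and the log2 ratio of miR-211-5p to miR-204-5p between -0.37 and 0.26 (0.042 without CON mouse 1). miR-211-5p has no value at a minimum mean of 10 CPM. Over all entries, 1 miRNA passed both limits in limma, against 0 without trend, 0 at a mean of at least 10 CPM, 22 with a pseudocount of 0.1, 32 in edgeR's quasi-likelihood test, 31 in its exact test, 11 in DESeq2, 32 in limma-voom, and 0 to 1 with each mouse left out. An unadjusted p under 0.05 was reached by 61 miRNAs, against 32 with at least 10 reads in 3 libraries, 5 at a mean of at least 10 CPM, 28 in DESeq2, and 31 to 91 with each mouse left out (31 without PND mouse 2, 40 without CON mouse 2). The cause was not tested, beyond the smaller number of entries under the filters. With the replicate block, 2 miRNAs passed both limits and 56 had an unadjusted p under 0.05, and the members' log2 fold changes were 0.07, 0.19 and -0.01. Same-numbered mice had correlations of -0.13, 0.12 and 0.51 in their deviations from the group means, and PND mouse 1 correlated best with CON mouse 2 (0.50). Deviations from a mean of 3 mice are tied to each other, so these values cannot show whether the numbers pair the mice. The block changed no call of a member. The interval of miR-211-5p comes mainly from the spread between mice, 2.63 to 2.90 times the counting SD within groups, and the counting error of the arm ratio comes mainly from the 133 to 262 reads of miR-204-3p. Leaving out mice from the cell type lists and from the correlations with them was chosen after the data were seen.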
